A study of Mus musculus with 113 samples.

Results

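The 9 genes described here encode parts of the Nodal signalling pathway. They are the ligands Nodal and Gdf3, the co-receptor Tdgf1 (Cripto), the receptors Acvr1b and Acvr2b, the transducer Smad2, and the inhibitors Smad7, Lefty1 and Lefty2. They were chosen by gene symbol from the 4 deposited expression tables, which together list 23739 genes, and 9 of 9 were found in each table. The study followed mouse embryonic stem cells (mESCs) through neural differentiation. It profiled 22 cell populations and 64 single cells in a serum-free culture of floating aggregates that resemble embryoid bodies (SFEB), 15 samples of an adherent culture, and 12 samples of E14 cells. The SFEB populations, the single cells and the adherent cultures were R1 mESCs, taken at labelled hours of differentiation from 0 h. Of the SFEB populations, 14 form a first series from 0 h to 142 h and 8 a parallel series from 0 h to 216 h, and 8 single cells were taken at each of the 8 time points of the parallel series. The label of the first-series SFEB sample at 0 h gives no sample type, so its title was used to place it. The adherent series runs from 0 h to 216 h. By the study's methods, cells of both cultures were replated onto coated dishes before 216 h, and the SFEB cells were given another medium. The 216 h samples thus come after this replating, whose part was not tested. The E14 samples were wild type (WT) cells and Fyn knockout (Fyn KO) cells at day 0 and day 4, with 3 replicates in each of the 4 groups. The Fyn KO cells are 1 clone with a CRISPR deletion that takes in the initiation codon, so the clone and the genotype cannot be told apart, and the labels do not say which culture method the E14 cells were given.

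Nodal is a secreted ligand of the TGF-beta superfamily. It binds a type II activin receptor such as Acvr2b and the type I receptor Acvr1b (Alk4) together with a co-receptor of the Cripto family, and the activated receptors phosphorylate Smad2 and Smad3, which enter the nucleus with Smad4 and act with partners such as Foxh1. Lefty1 and Lefty2 are secreted inhibitors that are themselves targets of the pathway, so that the signal limits itself, and Smad7 blocks the receptors from inside the cell. In the early embryo Nodal signalling maintains the pluripotent epiblast and patterns mesoderm and endoderm, and neural differentiation of mESCs is favoured when it is low.

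Reads are assigned to genes by sequence, and among the members the pair Lefty1 and Lefty2 shares the most. Both lie on the plus strand of chromosome 1 (mm9), Lefty2 at chr1:182823239-182829234 and Lefty1 at chr1:182865153-182868531. Their coding sequences are 1107 bases each, and 1017 of those bases are the same, an identity of 91.9% with 0 gaps. Of the 1521 windows of 100 bases along the Lefty1 transcript, 73, or 4.80%, occur letter for letter in Lefty2, and the longest shared run is 140 bases. Most reads of 1 gene can therefore be told from the other, and those from the shared stretches cannot, so small differences between both genes are uncertain. The 60 coding bases that differ most hold 18 mismatches and are shown because they tell the genes apart. The stretch lies in Lefty1 at chr1:182865274-182865333 and in Lefty2 at chr1:182823348-182823407, and capitals mark the bases that differ.
Lefty1: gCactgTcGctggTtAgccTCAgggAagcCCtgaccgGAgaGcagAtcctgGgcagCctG
Lefty2: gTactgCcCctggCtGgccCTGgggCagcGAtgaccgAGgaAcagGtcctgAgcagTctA

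Tdgf1, at chr9:110842114-110848662 on the minus strand, also has near copies in the genome. Its 516 coding bases match chr16:3730510-3731025 over 516 bases at 98.6% identity, where the annotation used here has no gene. Shorter matches lie in Tdgf1-ps2 at chr17:12382894-12383315, with 90.3% identity over 433 bases, and in the pseudogene Gm13455 at chr2:40142764-40143199, with 91.1% over 439 bases. The FPKM of Tdgf1 may thus miss reads or hold reads of a copy. None of the other members, apart from the Lefty pair, had a match of at least 100 bases at 90% identity. They lie at chr10:60880720-60888086 (Nodal, plus strand), chr6:122555421-122560105 (Gdf3, minus strand), chr15:101004556-101043032 (Acvr1b, plus strand) and chr9:119311562-119342619 (Acvr2b, plus strand), and Smad7 and Smad2 are placed below.

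The promoters of the ligand Nodal and its co-receptor Tdgf1 are printed because both genes were called lower after 96 h in SFEB and in adherent culture. The 250 bases before the start were read from a set of RefSeq promoters (GRCm38.p6) for 4 of the 9 members, Nodal, Tdgf1, Acvr1b and Acvr2b. They lie at chr10:61417722-61417971 (plus strand) for Nodal and chr9:110946159-110946408 (minus strand) for Tdgf1. They were searched on both strands for AATNNACA, a core of the site that Foxh1 binds, for CAGACA, a form of the Smad-binding element, and for the palindromic form GTCTAGAC, which holds no CAGACA. Tdgf1 held AATNNACA 2 times, shown in capitals, and Nodal, Acvr1b and Acvr2b held none of the motifs.
Nodal: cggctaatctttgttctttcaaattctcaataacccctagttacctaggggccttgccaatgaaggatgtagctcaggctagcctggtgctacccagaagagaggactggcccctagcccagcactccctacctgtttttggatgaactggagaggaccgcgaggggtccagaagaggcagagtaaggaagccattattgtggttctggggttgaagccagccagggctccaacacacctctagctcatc
Tdgf1: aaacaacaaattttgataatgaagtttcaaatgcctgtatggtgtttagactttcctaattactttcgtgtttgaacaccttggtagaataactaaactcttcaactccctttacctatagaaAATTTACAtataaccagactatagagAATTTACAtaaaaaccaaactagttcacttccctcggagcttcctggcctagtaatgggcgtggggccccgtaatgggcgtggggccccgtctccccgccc
Of all 32851 promoters of this length, 10.9% held AATNNACA, 17.1% held CAGACA and 0.167% held GTCTAGAC. A match is a string of letters and not a measured binding site.

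In SFEB, the 2 ligands, the co-receptor and the 3 inhibitors were high in the first days and fell after 96 h, while Acvr2b rose. Each time point is 1 sample, so the labelled hours were grouped into windows of up to 24 h (5 samples), over 24 h to 60 h (3), over 60 h to 96 h (3) and over 96 h (3), and the spread of a window holds any change within it. FPKM are fragments scaled to transcript length and to the fragments mapped, and those of the SFEB populations carry a batch correction by the authors (ComBat) whose batches are not given in the sources used here. The files give no read depth for the populations. Windows were compared with limma on log2(FPKM + 1), and a gene was called at an adjusted p under 0.05. These are bulk samples, in which fewer cells of a type and less RNA per cell cannot be told apart.

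**Figure D1:**
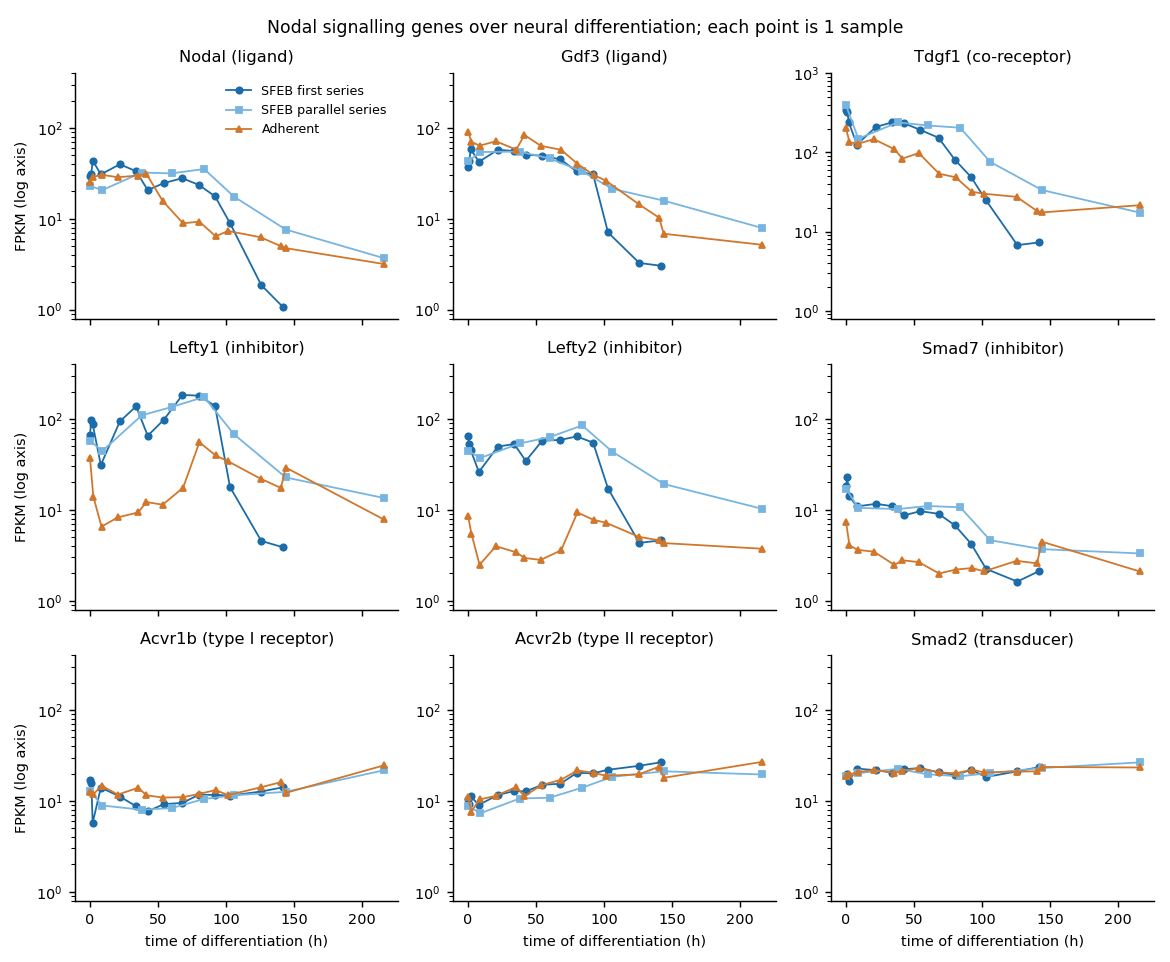
FPKM (log axis) of the 9 genes against hours of differentiation in the SFEB first series (dark circles), the SFEB parallel series (light squares) and the adherent series (triangles), with 1 point for each sample. Nodal, Tdgf1 and Gdf3 end low in all 3 series, whereas Lefty1 rises to 184 FPKM at 68 h in SFEB and falls to 6.54 FPKM at 8.5 h in adherent culture before rising to 55.4 at 80.5 h.

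Nodal measured 29.3, 31.5, 43.8, 30.8 and 39.8 FPKM at 0, 1, 2, 8 and 22 h, then 33.4, 20.7 and 24.8 FPKM at 34, 42.5 and 54.5 h. It held 27.99, 23.6 and 17.7 FPKM at 68, 80 and 92 h and ended at 8.97, 1.86 and 1.07 FPKM at 103, 126 and 142 h. The last 3 samples lay below each earlier one, and the step from 92 h to 103 h was larger than any change before it on a ratio scale. After 96 h Nodal was 2.78 ± 0.41 (SE) lower than at 24–60 h on the log2 scale, at 0.145 times the earlier level of FPKM + 1 (limma, adjusted p = 7.95e-05).

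Tdgf1, the co-receptor that lets Nodal bind its receptors, reached the highest FPKM of the members. It measured 347, 325, 240.0, 126 and 210.1 FPKM in the samples up to 24 h and 240.1, 234 and 193 FPKM at 24–60 h. It then gave 153, 81.0 and 48.8 FPKM at 60–96 h and 24.8, 6.76 and 7.31 FPKM after 96 h. Tdgf1 thus had a first low at 8 h, and its samples at 60–96 h already lay below all 3 of the preceding window. The difference after 96 h against 24–60 h was -4.23 ± 0.46 (log2, SE; limma, adjusted p = 9.53e-06), the largest among the members.

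Gdf3, a second ligand that uses the same co-receptor, measured 37.6 to 58.6 FPKM up to 24 h, 55.7, 50.7 and 49.5 FPKM at 24–60 h, 45.0, 33.2 and 30.8 FPKM at 60–96 h, and 7.08, 3.27 and 3.04 FPKM after 96 h. Its windows from 24 h on did not overlap. The difference after 96 h was -3.35 ± 0.24 (log2, SE; limma, adjusted p = 6.45e-07).

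Lefty1 and Lefty2 did not follow Nodal step by step. Lefty1 measured 67.1, 96.6, 87.8, 31.1 and 93.9 FPKM up to 24 h and 138, 65.3 and 98.5 FPKM at 24–60 h. At 68, 80 and 92 h it reached 184, 181 and 139 FPKM, its 3 highest samples, at times when Nodal was at 27.99 FPKM or less. At 103, 126 and 142 h it fell to 17.9, 4.55 and 3.87 FPKM. Lefty2 moved less, with 65.0, 53.4, 45.3, 26.1 and 49.8 FPKM up to 24 h, 52.9, 34.5 and 57.5 FPKM at 24–60 h, 58.8, 64.3 and 54.9 FPKM at 60–96 h and 17.1, 4.33 and 4.61 FPKM after 96 h. Both had their lowest early value in the 8 h sample. The ratio of Lefty1 to Lefty2 FPKM was highest at 68 h, at 3.12, and was 1.03 at 0 h. The differences after 96 h against 24–60 h were -3.60 ± 0.47 for Lefty1 and -2.56 ± 0.39 for Lefty2 (log2, SE; limma, adjusted p = 3.13e-05 and 0.000106).

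Smad7, which blocks the receptors inside the cell and lies at chr18:75527183-75555589 (plus strand), went down over the whole course. It measured 18.3, 23.0, 14.3, 10.9 and 11.6 FPKM up to 24 h, 10.97, 8.66 and 9.67 FPKM at 24–60 h, 9.05, 6.77 and 4.23 FPKM at 60–96 h and 2.24, 1.62 and 2.12 FPKM after 96 h. Its late samples lay below those of 24–60 h without overlap, by 1.85 ± 0.26 on the log2 scale (SE; limma, adjusted p = 6.58e-05).

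The type II receptor Acvr2b rose. It measured 9.04 to 11.6 FPKM up to 24 h, 12.8, 12.7 and 15.02 FPKM at 24–60 h, 15.4, 20.3 and 20.1 FPKM at 60–96 h and 22.0, 24.3 and 26.6 FPKM after 96 h. No pair of its windows overlapped, and the late difference was 0.80 ± 0.15 (log2, SE; limma, adjusted p = 0.000419), or 1.74-fold. The type I receptor Acvr1b gave 11.4, 12.7 and 14.1 FPKM after 96 h and 8.71, 7.69 and 9.21 FPKM at 24–60 h, which do not overlap, but the difference of 0.53 ± 0.27 did not pass the test (adjusted p = 0.125). The transducer Smad2, at chr18:76401234-76465385 (plus strand), stayed within 16.4 to 23.5 FPKM in all 14 samples, and its late difference was -0.07 ± 0.14 (adjusted p = 0.719).

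In this late comparison 7 of the 9 members were called, 6 lower and 1 higher, beside 49.4% of the 13009 genes tested, of which 20.8% were lower and 28.6% higher. The members' median log2 difference was -2.56 and that of all genes 0.08. Markers of other states moved over the same hours. The summed FPKM of the 6 pluripotency markers went from 1044–1362 up to 24 h to 67.1–234 after 96 h, and that of the 4 neural markers from 13.6–26.8 to 106–226. From 24–60 h to after 96 h the epiblast sum went from 262–598 to 54.8–128 FPKM, and the mesoderm and endoderm sum from 5.74–6.62 to 7.18–22.4 in this series and from 0.742–2.75 to 23.99–47.7 in the parallel one. The SFEB and adherent data list 6 of the 9 mesoderm and endoderm markers, and the E14 data all 9. The part of the markers in the members' change was not tested.

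The earlier step in SFEB, 24–60 h against 0–24 h, called none of the 9 members, beside 26% of all genes tested, 10% higher and 16% lower. The nearest were Acvr2b with 0.36 ± 0.13 (adjusted p = 0.0536) and Smad7 with -0.58 ± 0.24 (adjusted p = 0.0818). Acvr2b was called without the 2 h or the 22 h sample (adjusted p = 0.0411 and 0.0332), under quantile normalization (0.0298) and with both SFEB series (0.00324), and Smad7 without the 8 h or the 22 h sample (0.0471 and 0.0443) and with both series (0.0489). Nodal differed by -0.41 ± 0.37, Tdgf1 by -0.09, Gdf3 by 0.13, Lefty1 by 0.45 and Lefty2 by 0.04 on the log2 scale. Leaving out the 2 h sample brought Acvr1b to -0.68 with an adjusted p of 0.00539, since that sample held 5.72 FPKM against 11.1 to 17.01 in the others up to 24 h. The early samples also held fibroblast transcripts. The cultures were passaged once without feeder cells, and the summed FPKM of 9 fibroblast markers was 137–927 up to 24 h with none of the 9 below 0.5 FPKM, and 18.8–57.2 at 24–60 h. Their part in the early differences was not tested.

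The parallel SFEB series has 1 sample at each of its times and is given as values. Nodal measured 23.1, 20.7, 32.3, 31.6, 35.3, 17.5, 7.62 and 3.70 FPKM at 0, 9, 38, 60, 84, 106, 144 and 216 h. Lefty1 measured 57.9, 44.3, 109, 135, 174, 67.7, 22.7 and 13.5 FPKM at the same times, with its highest value at 84 h, and Lefty2 peaked there too, at 85.0 FPKM. Tdgf1 dropped from 391.9 FPKM at 0 h to 149 at 9 h, returned to 239.6 at 38 h, and measured 219, 205, 76.0, 33.5 and 17.4 FPKM from 60 h on. Nodal and Tdgf1 were higher late in the parallel series than in the first. At 144 h Nodal was at 7.62 FPKM and Tdgf1 at 33.5, against 1.07 and 7.31 at 142 h in the first series. The pluripotency sum was 286 FPKM at that 144 h and 67.1 at that 142 h, and the mesoderm and endoderm sum 38.8 and 7.18, and their part was not tested. Gdf3 ended at 7.95 FPKM, Smad7 at 3.31 and Acvr2b at 19.5. With both series in 1 fit and the series as a term, the 7 late calls were kept and Acvr1b was called as well, at 0.65 (adjusted p = 0.00849).

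In adherent culture the ligands and the co-receptor fell and Acvr2b rose, but the inhibitors did not pass the test. R1 cells were plated in a defined medium on gelatin, without the floating aggregates of SFEB. They were replated onto another coating before the 216 h sample. Levels were set against times of the same table only, since the tables were normalized separately. The windows held 4, 3, 3 and 5 samples.

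Nodal measured 25.6, 28.9, 30.5 and 28.7 FPKM at 0, 2.5, 8.5 and 20.5 h, and 30.0, 31.4 and 15.7 FPKM at 35.5, 41.5 and 53.5 h. It then gave 8.93, 9.31 and 6.42 FPKM at 68.5, 80.5 and 92.5 h and 7.35, 6.27, 5.00, 4.76 and 3.19 FPKM at 101.5, 125.5, 140.5, 144 and 216 h. Its largest step on a ratio scale lay between 41.5 h and 53.5 h, inside the 24–60 h window used in the test, and the values went on down to 216 h. Tdgf1 measured 201, 135, 128 and 147 FPKM up to 24 h, 110, 83.6 and 98.2 FPKM at 24–60 h, 53.8, 48.6 and 31.9 FPKM at 60–96 h and 30.1, 27.5, 18.2, 17.5 and 21.6 FPKM after 96 h. Its 4 windows did not overlap. Gdf3 measured 63.8 to 90.6 FPKM up to 24 h, 57.7, 83.9 and 63.6 FPKM at 24–60 h, and 26.3, 14.5, 10.3, 6.85 and 5.19 FPKM after 96 h, the last values in order of time. After 96 h against 24–60 h, Nodal differed by -2.06 ± 0.23, Tdgf1 by -2.06 ± 0.21 and Gdf3 by -2.53 ± 0.36 (log2, SE; limma, adjusted p = 8.54e-06, 4.39e-06 and 5.53e-05).

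Lefty1 had a different course here. It measured 37.6 FPKM at 0 h, 13.97 at 2.5 h, 6.54 at 8.5 h and 8.26 at 20.5 h, then 9.37, 12.2 and 11.4 FPKM at 24–60 h. At 68.5, 80.5 and 92.5 h it gave 17.5, 55.4 and 39.7 FPKM, and after 96 h 34.3, 22.0, 17.4, 29.2 and 7.86 FPKM. The highest samples again lay between 60 h and 96 h, as in SFEB, and the late samples overlapped those of 24–60 h. Lefty2 was low, from 2.49 FPKM at 8.5 h to 9.35 FPKM at 80.5 h. It measured 3.41, 2.95 and 2.81 FPKM at 24–60 h and 7.21, 5.06, 4.62, 4.31 and 3.73 FPKM after 96 h, which do not overlap. Neither late difference passed the test, with 0.81 ± 0.51 for Lefty1 and 0.54 ± 0.30 for Lefty2 (adjusted p = 0.188 and 0.140). Smad7 measured 7.32 FPKM at 0 h and 1.99 to 4.46 FPKM in all later samples, with a late difference of 0.03 ± 0.21.

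Of the 9 members 4 were called in the late adherent comparison, 3 lower and 1 higher, beside 57.1% of the 12879 genes tested, 19% lower and 38.1% higher. The gene called higher was Acvr2b, which measured 14.2, 11.2 and 14.8 FPKM at 24–60 h and 18.9, 19.6, 23.7, 17.9 and 26.8 FPKM after 96 h, a difference of 0.63 ± 0.16 (adjusted p = 0.00362). The median of all genes was itself 0.22 higher on the log2 scale after 96 h and was -0.01 after quantile normalization, under which Acvr2b was at 0.41 and still called (adjusted p = 0.0356). Acvr1b and Smad2 were not called, at 0.31 ± 0.19 and 0.02. At 24–60 h against 0–24 h none of the 9 members was called, beside 9.6% of genes tested, 3.43% higher and 6.17% lower. The nearest was Tdgf1, at -0.63 ± 0.22 (adjusted p = 0.0802). The fibroblast marker sum was 143–417 FPKM up to 24 h and 66.6–115 at 24–60 h. From 24–60 h to after 96 h the pluripotency sum went from 719–1067 to 151–265 FPKM and the neural sum from 15.96–30.1 to 107–206. The part of these markers in the members' values was not tested.

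**Figure D2:**
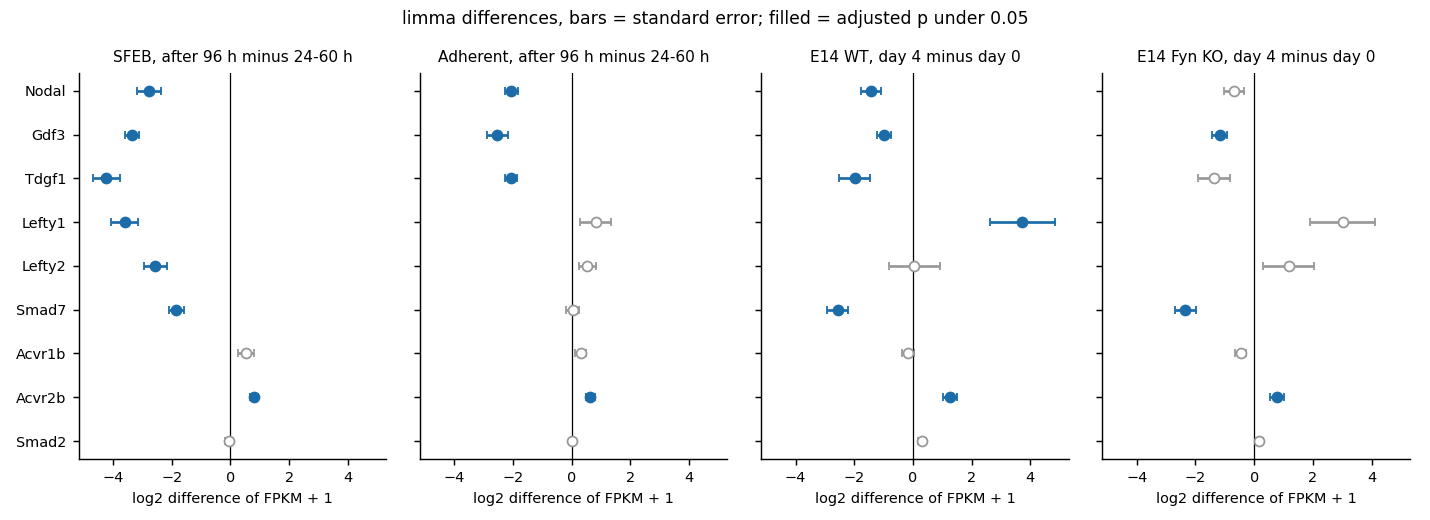
Log2 differences of FPKM + 1 (horizontal axis) with standard errors for the 9 genes in 4 comparisons, with filled points for an adjusted p under 0.05 in limma. Nodal, Tdgf1 and Gdf3 lie left of 0 in all 4 panels, while Lefty1 lies at -3.60 in SFEB, 0.81 in adherent culture, 3.72 in E14 WT and 3.02 in E14 Fyn KO.

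Other genes of the pathway were counted from a list of 32 ligands, receptors, transducers, inhibitors, convertases and mesendoderm targets. In SFEB at 24–60 h against 0–24 h, 5 of the 28 tested were higher and 9 lower, beside 10% and 16% of all genes. The largest were the activin subunits Inhba at -3.17 and Inhbb at -2.77, the feedback inhibitor Pmepa1 at -1.90, the ligand Gdf1, a partner of Nodal, at 1.84 and the TGF-beta receptor Tgfbr2 at -1.63. After 96 h 10 were higher and 8 lower, beside 28.6% and 20.8% of all genes, with the activin antagonist Fst at 2.88, the Smad co-repressor Skil at -2.32, the transducer Smad3 at 2.20, Gdf1 at -2.01 and the Smad partner Foxh1 at -1.91. Smad3 and Smad2, which carry the same signal, thus gave different values in the late window, and that contrast between both genes was not tested. In adherent culture 2 of 25 were higher at 24–60 h, Gdf1 at 1.07 and Smad4 at 0.44, beside 3.43% of all genes, and 3 were lower, beside 6.17%, Inhbb at -2.11, Pmepa1 at -1.86 and Inhba at -1.54. After 96 h there 10 were higher and 5 lower, beside 38.1% and 19% of all genes, with the type I receptor Tgfbr1 at 2.57, Fst at 2.34, Foxa2 at 1.66 and the type II receptor Acvr2a at 1.58. Foxa2 marks endoderm and floor plate, and the summed FPKM of the mesoderm and endoderm markers was 3.15–69.2 in these 5 late samples. The part of such cells in the members' values was not tested. The list's medians were 0.04 and 0.02 in the SFEB steps and -0.03 and 0.14 in the adherent steps.

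Among the 10631 genes ranked for likeness over the 14 first-series SFEB samples, those nearest to Nodal by Pearson's r of log2(FPKM + 1) were Akap12 (0.980), the pluripotency factor Pou5f1 (0.979), L1td1 (0.979), Got1 (0.976) and Utf1 (0.970). Over the 15 adherent samples, their r with Nodal was 0.804, 0.947, 0.806, 0.945 and 0.911. Those nearest to Tdgf1 were Fgf4 (0.984), Anxa7 (0.976), Pkp2 (0.976), Hspbap1 (0.975) and Nr3c1 (0.975), with 0.960, 0.765, 0.812, 0.945 and 0.757 in the adherent samples. The genes nearest to Lefty2 were Ly6e (0.951), Slc27a2 (0.942), Camk2b (0.942), Ano9 (0.932) and Akap12 (0.927), and all 5 had an r below 0 in the adherent samples, from -0.473 to -0.0669. Among those nearest to Lefty1 were Ly6e (0.941), Slc27a2 (0.936), Lrp11 (0.928) and Tmem63a (0.927). In the adherent samples Tmem63a was at 0.515, and the other 3 were below 0. Samples of a series share its order in time, so these values are a description.

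The members split in the same way. Nodal had an r of 0.936 with Tdgf1 and 0.965 with Gdf3 in SFEB, and 0.942 and 0.888 in adherent culture. With Lefty1 and Lefty2, Nodal had 0.879 and 0.924 in SFEB but -0.394 and -0.265 in adherent culture. Lefty1 and Lefty2 stayed alike, at 0.970 and 0.876. Acvr2b ran against Nodal in both, at -0.808 and -0.907.

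Tmem63a, an ion channel gene, is a neighbour of Lefty1 on chromosome 1. On mm9 it lies at chr1:182872475-182905243, 3943 bases past Lefty1, and on the same plus strand as both Lefty genes. Reads that run past the end of Lefty1 would not be told from those of Tmem63a by strand. Tmem63a measured 13.7 FPKM at 80 h, 12.975 at 92 h, 4.69 at 103 h and 2.95 at 142 h. Its change was smaller than that of Lefty1, which went from 184 FPKM at 68 h to 3.87 FPKM at 142 h. In adherent culture Tmem63a was highest at 0 h, at 5.81 FPKM. Lefty1 was highest at 0 h only among the samples up to 60 h, and its maximum there was 55.4 FPKM at 80.5 h. Among other genes within 100 kb, the r with Lefty1 in SFEB was 0.397 for BC031781 and 0.383 for Ephx1.

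**Figure D3:**
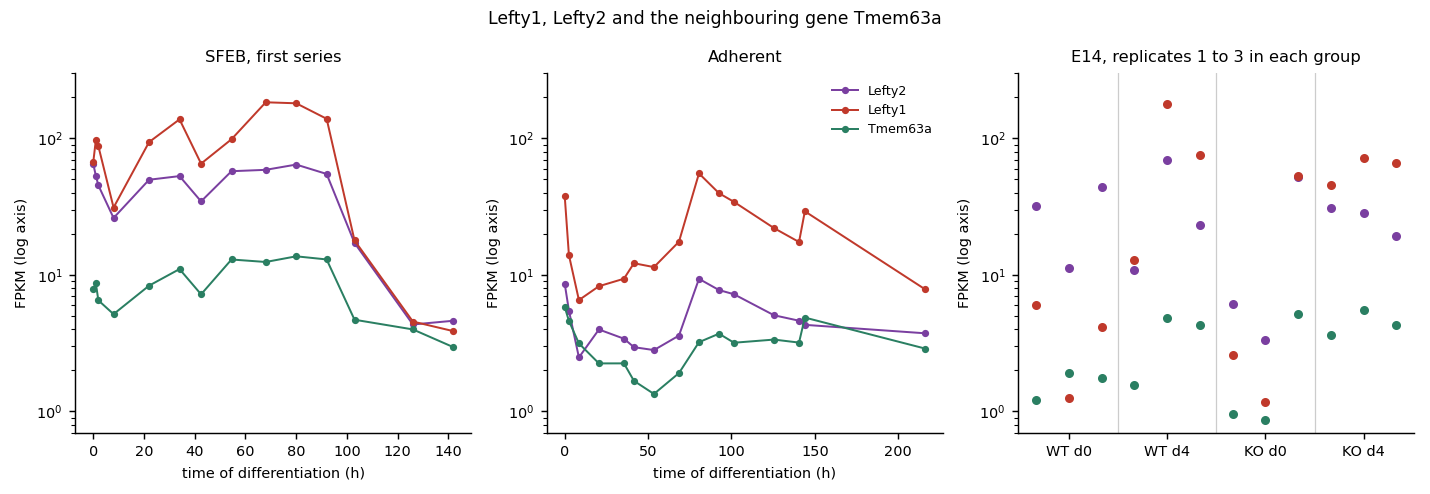
FPKM (log axes) of Lefty1, Lefty2 and the neighbouring gene Tmem63a against hours in the SFEB first series (left) and adherent culture (middle), and in each E14 sample by group and replicate (right). All 3 genes are low at 142 h in SFEB, where Tmem63a is at 2.95 FPKM, and all 3 are higher in replicate 3 of Fyn KO day 0 than in its other 2 replicates.

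In E14 cells, Nodal, Tdgf1, Gdf3 and Smad7 were lower at day 4 than at day 0 in WT while Acvr2b and Lefty1 were higher. The targeted gene was read first. Fyn measured 3.21, 2.74 and 4.00 FPKM in WT day 0, 9.44, 4.54 and 6.76 in WT day 4, 0.598, 0.598 and 1.0996 in Fyn KO day 0 and 1.19, 1.13 and 1.58 in Fyn KO day 4, so every Fyn KO sample lay below every WT sample, and reads from undeleted exons would still count. Relative depth, read from the steps between the lowest FPKM values, ranged from 0.921 to 1.198 against Fyn KO day 0 replicate 1. Nothing in the labels says that replicates came from separate cultures, so the p-values measure the spread between these samples.

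A pair of libraries stood apart from their groups in their markers. Replicate 3 of Fyn KO day 0 correlated with its group at r = 0.939, whereas the other 2 correlated at 0.981. It held the epiblast markers Dnmt3b at 49.7 FPKM (15.1 and 15.3 in the others) and Otx2 at 12.4 (0.397 and 0.395). Fgf5, also on that list, was near 0 throughout, at 0.132 FPKM (0 and 0.0232). Replicate 1 of WT day 4 correlated with its group at 0.944, and the other 2 with each other at 0.965. That replicate held the neural markers Sox1 at 47.2 FPKM (7.81 and 11.6 in the others), Pax6 at 26.8 (3.71 and 6.77) and Hes5 at 12.4 (0 and 1.54). Its Nes value of 5.28 lay between those of the others (2.68 and 9.14). The members' day 4 against day 0 calls are given with and without both, an alternative chosen after seeing the data. Replicate 1 of WT day 0 had a gap in r nearly as large as that of WT day 4 replicate 1 (0.961 against 0.981), and leaving it out changed none of the members' calls.

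Nodal measured 25.5, 30.5 and 30.4 FPKM in WT day 0 and 4.42, 16.1 and 13.7 in WT day 4, which do not overlap. It measured 15.9, 22.3 and 22.0 FPKM in Fyn KO day 0 and 12.2, 12.97 and 10.97 in Fyn KO day 4, which do not overlap either. In WT the day 4 minus day 0 difference was -1.42 ± 0.34 (log2, SE; limma, adjusted p = 0.0112) and -0.91 without both libraries (adjusted p = 0.00515). In Fyn KO it was -0.68 (adjusted p = 0.178), with an adjusted p of 0.0404 when only the 2 groups were fitted, and -0.61 without both libraries (adjusted p = 0.0267).

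Tdgf1 measured 241, 266 and 359 FPKM in WT day 0 and 24.6, 91.8 and 160 in WT day 4, a difference of -1.98 ± 0.53 (adjusted p = 0.0187). That call was lost without WT day 0 replicate 3 (adjusted p = 0.0658) or replicate 2 (0.0510), and without both libraries the difference was -1.22 (0.0124). Its Fyn KO values of 337, 217 and 497 FPKM at day 0 and 154, 103 and 131 at day 4 did not overlap, and the difference of -1.37 did not pass the test (adjusted p = 0.0906). It passed without both libraries (0.0183) and when only the 2 groups were fitted (0.0256). Gdf3 fell in both lines. It measured 52.2, 58.5 and 87.5 FPKM in WT day 0 and 23.5, 33.6 and 41.5 in WT day 4, and 62.7, 71.7 and 49.9 in Fyn KO day 0 and 23.5, 34.1 and 22.9 in Fyn KO day 4. Its differences were -0.98 ± 0.25 and -1.17 ± 0.25 (adjusted p = 0.0147 and 0.00854). The WT call was lost without WT day 0 replicate 3 (adjusted p = 0.0615) or WT day 4 replicate 1 (0.0557). Without both libraries the differences were -0.77 and -1.31 (adjusted p = 0.0417 and 0.00306).

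Smad7 had the smallest adjusted p of the members in both lines. It measured 26.9, 28.7 and 17.5 FPKM in WT day 0 and 1.39, 4.49 and 4.72 in WT day 4, and 29.1, 29.0 and 13.9 in Fyn KO day 0 and 3.57, 3.89 and 3.53 in Fyn KO day 4. The differences were -2.56 ± 0.35 and -2.35 ± 0.35 (adjusted p = 0.000750 and 0.00163), and -2.15 and -2.69 without both libraries (0.000136 and 2.79e-05). Acvr2b rose from 7.64, 5.14 and 5.87 to 17.2, 15.4 and 15.5 FPKM in WT, by 1.25 ± 0.24 (adjusted p = 0.00414), and by 1.203 without both libraries (0.0135). In Fyn KO it went from 8.40, 6.94 and 8.57 to 8.80, 18.1 and 18.2 FPKM, by 0.77 ± 0.24 (adjusted p = 0.0435), a call that was lost without both libraries (adjusted p = 0.0541), without replicate 1 or 2 of day 0 (0.0920 and 0.148) or without replicate 2 or 3 of day 4 (0.138 and 0.160). With the replicate block it was lost as well (adjusted p = 0.0550), as it was with no filter on low values (0.0694) and when only the 2 groups were fitted (0.101). Acvr1b stayed within 6.77 to 15.4 FPKM and Smad2 within 5.55 to 8.72 FPKM over the 12 samples, and neither was called. Without both libraries Acvr1b was called in Fyn KO, at -0.62 (adjusted p = 0.0380).

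The 2 Lefty genes had different values in E14. Lefty1 measured 6.06, 1.26 and 4.18 FPKM in WT day 0 and 12.8, 179 and 75.5 in WT day 4, a difference of 3.72 ± 1.11 (adjusted p = 0.0288) that was 4.75 without both libraries (adjusted p = 0.000196). The call was lost without replicate 2 or 3 of day 0 (adjusted p = 0.106 and 0.0656) or of day 4 (0.0994 and 0.0791). In Fyn KO day 0 it measured 2.60, 1.18 and 52.98 FPKM, the last in the library that stood apart, and in Fyn KO day 4 45.3, 71.4 and 66.0. The difference there was 3.02 ± 1.11 (adjusted p = 0.0768), and 4.44 without both libraries (adjusted p = 0.000194). Lefty2 was already at 32.2, 11.3 and 44.2 FPKM in WT day 0 and measured 10.9, 69.4 and 23.3 in WT day 4, groups that overlap, with a difference of 0.05 ± 0.86. In Fyn KO it measured 6.11, 3.33 and 52.2 FPKM at day 0 and 30.8, 28.6 and 19.1 at day 4. That difference was 1.18 (adjusted p = 0.360), and 2.27 without both libraries (adjusted p = 0.0136).

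The ratio of Lefty1 to Lefty2 FPKM in WT went from 0.0945–0.188 at day 0 to 1.17–3.24 at day 4, a change of 4.09 on the log2 scale. In Fyn KO it went from 0.354–1.01 to 1.47–3.45, a change of 2.12. Without both libraries the changes were 4.52 and 2.59. Neither pair of groups overlapped, and the two-sided exact permutation p was 0.1 in both, the smallest that 3 against 3 unpaired samples allow. In the 0 h samples of R1 cells, Lefty1 and Lefty2 were at 67.1 and 65.0 FPKM in the SFEB first series, a difference too small to read for a pair that shares reads, and at 37.6 and 8.60 FPKM in adherent culture. In replicate 3 of Fyn KO day 0 the neighbour Tmem63a was also higher than in the other 2 replicates, at 5.1 FPKM (1.0 and 0.9).

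**Figure D4:**
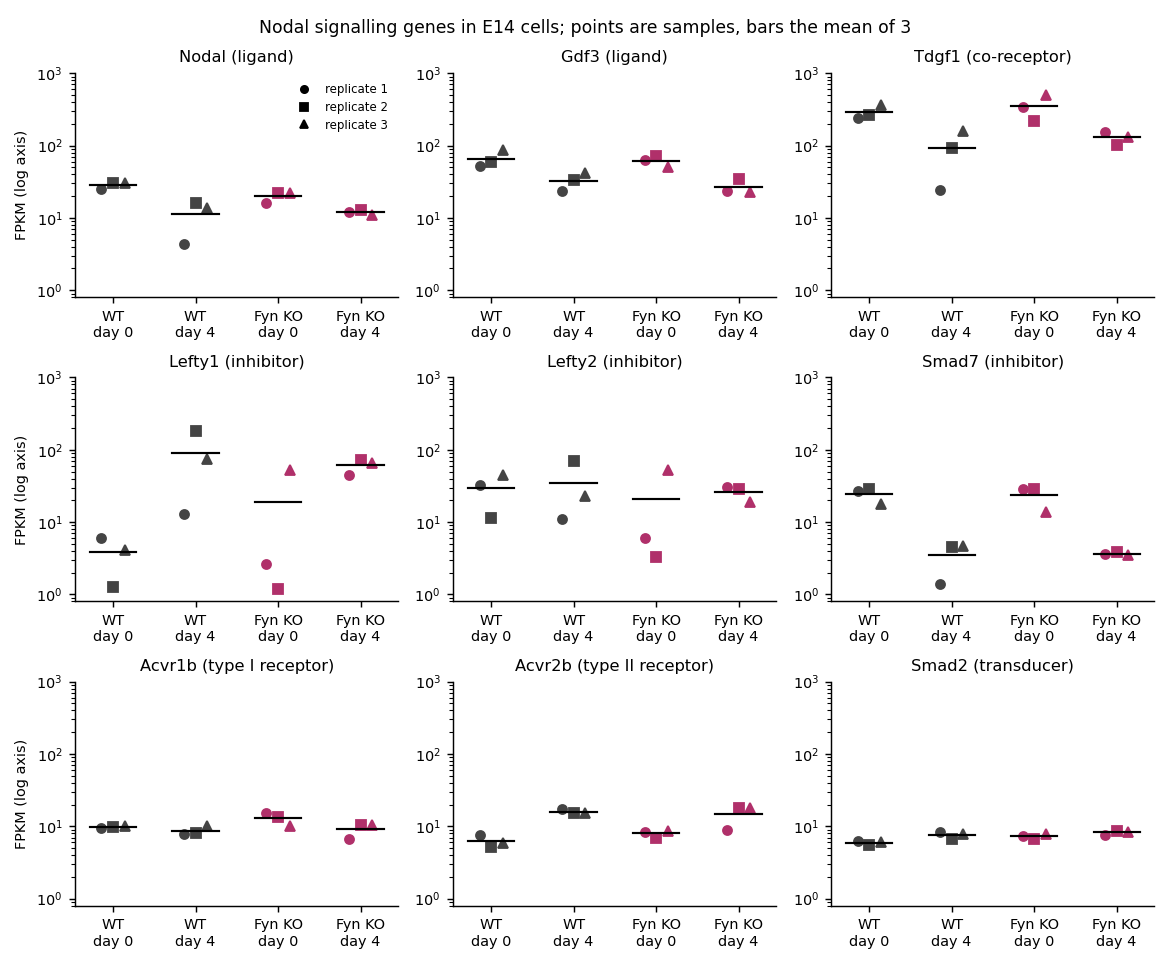
FPKM (log axis) of the 9 genes in E14 WT (grey) and Fyn KO (magenta) samples at day 0 and day 4, with the replicate shown by the marker and bars at the mean of 3. Smad7 falls and Acvr2b rises in both lines, and Lefty1 in Fyn KO day 0 has replicate 3 at 52.98 FPKM above the 2.60 and 1.18 FPKM of the other replicates.

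For day 4 against day 0, 6 of the 9 members were called in WT, 4 lower and 2 higher, beside 25.8% of the 12257 genes tested, 10.3% lower and 15.5% higher. In Fyn KO 3 were called, 2 lower and 1 higher, beside 19.3% of genes, 7.56% lower and 11.8% higher. Without both libraries that stood apart, 6 were called in WT, 4 lower and 2 higher, beside 8.87% and 14.5% of genes, and 7 in Fyn KO, 5 lower and 2 higher, beside 10.9% and 16.8%. With all libraries the members' medians were -0.17 and -0.46 on the log2 scale, beside 0.08 and 0.05 for all genes. These counts do not show a difference between the lines. The test of the difference between both changes called no member, with all 9 at an adjusted p of 0.997, beside 0% of all genes. Fyn KO against WT called no member at day 0, beside 0.171% of genes (0.0408% higher and 0.131% lower), and none at day 4, beside 0.0734% (0.00816% higher and 0.0653% lower). Nodal differed by -0.51 ± 0.34 at day 0 and by 0.23 at day 4, and its change differed by 0.74 ± 0.48 between the lines. Without both libraries that stood apart these values were -0.58, -0.28 and 0.30, so the day 4 value turned direction. Lefty1 differed by 0.79 ± 1.11 at day 0, which became -0.64 without both libraries.

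Of the other pathway genes, 26 were tested in E14. In WT 6 were higher and 4 lower at day 4, beside 15.5% and 10.3% of all genes, led by the convertase Pcsk6, which cleaves the Nodal precursor, at -2.57, Gdf1 at 2.05, Skil at 1.89, the mesendoderm gene Gsc at -1.88 and Pmepa1 at -1.49. In Fyn KO 3 of the 26 were higher and 2 lower, beside 11.8% and 7.56% of all genes. The higher ones were Skil at 1.96, Trim33 at 0.66 and Smad4 at 0.63, and the lower ones Pcsk6 at -1.48 and Pmepa1 at -1.27. Without both libraries, 25 were tested, with 6 higher and 3 lower in WT and 5 higher and 4 lower in Fyn KO. Over all 12081 genes tested in that setting, 14.5% were higher and 8.87% lower in WT, and 16.8% higher and 10.9% lower in Fyn KO. None of the listed genes was called between Fyn KO and WT at either day or in the change, with or without both libraries. The pluripotency marker sum went from 1645–1864 to 451–778 FPKM in WT and from 1498–1568 to 556–697 in Fyn KO, and the epiblast sum from 14.5–25.3 to 154–356 and from 15.5–62.2 to 273–373. The mesoderm and endoderm sum in WT was 6.82–14.3 FPKM at day 0 and 3.83, 22.6 and 31.1 at day 4, in the replicates where Lefty1 was at 12.8, 179 and 75.5. Of its 9 markers, 6, 5 and 5 were below 0.5 FPKM there, and the endoderm markers Gata4 and Sox17 measured 0.961, 9.78 and 12.5 and 0.210, 4.76 and 4.98. In Fyn KO that sum was 3.11–17.2 FPKM at day 0 and 0.908–7.37 at day 4. The part of these markers in the members' change was not tested. Fibroblast markers were near 0 here, with a summed level of 2.32–12.4 FPKM over the 12 samples and 4 to 8 of the 9 markers below 0.5 FPKM.

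In single SFEB cells, Lefty1, Gdf3 and Tdgf1 were found in most cells through 144 h and Acvr1b in few. The log10 values were taken as log10(RPKM + 1). The stated filter on the cells asks for more than 0.5 RPKM in at least 8 cells, which Acvr1b does not meet under this reading, so the RPKM values and the counts above 0.5 RPKM are uncertain. They had been quantile normalized by the authors, and the highest value of each cell was 4.134, so the number of genes above a given level is nearly fixed per cell and says nothing of depth. The 8 cells of a time point count as 1 sample, so no test was made, and the exact binomial 95% intervals cover counting error only. At a value above 0, Lefty1 was found in 63 of 64 cells, Gdf3 in 62, Lefty2 in 60, Smad2 in 59, Nodal and Tdgf1 in 58, Smad7 in 52, Acvr2b in 47 and Acvr1b in 11. Many of those values were close to 0, and above 0.5 RPKM the counts were 62 for Lefty1, 55 for Gdf3, 50 for Tdgf1, 49 for Lefty2, 34 for Nodal and for Smad2, 29 for Acvr2b, 23 for Smad7 and 3 for Acvr1b.

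**Figure D5:**
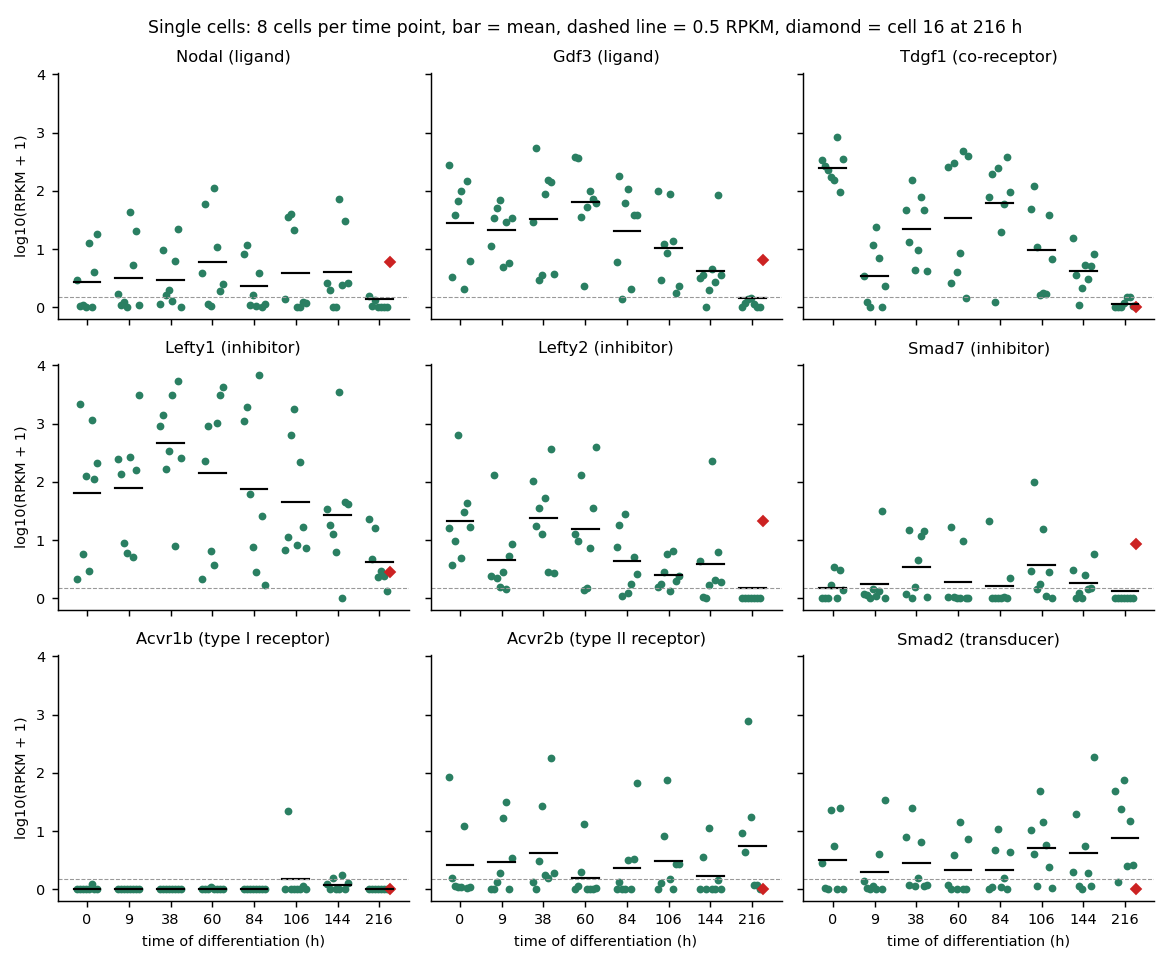
Log10(RPKM + 1) of the 9 genes in each of 64 single SFEB cells by hours of differentiation, with bars at the mean of 8 cells, a dashed line at 0.5 RPKM and a red diamond for cell 16 at 216 h. Lefty1 is above the line in all 8 cells at each time from 0 h to 106 h, Tdgf1 in none at 216 h, and Acvr1b in 3 cells of 64.

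Nodal was above 0.5 RPKM in 4, 4, 5, 6, 4, 3, 6 and 2 of 8 cells at 0, 9, 38, 60, 84, 106, 144 and 216 h. These shares overlap within their intervals, which run for example from 15.7% to 84.3% for 4 of 8 cells and from 3.19% to 65.1% for 2 of 8. The highest Nodal value was 111 RPKM, in cell 6 at 60 h, and at that time the mean log10 value was 0.775 ± 0.775 (SD, n = 8 cells). Tdgf1 was above 0.5 RPKM in 8, 5, 8, 7, 7, 8, 7 and 0 of 8 cells, and its mean log10 value was 2.40 at 0 h, 0.540 at 9 h, 1.35 at 38 h, 1.54 at 60 h, 1.79 at 84 h, 0.988 at 106 h, 0.620 at 144 h and 0.0565 at 216 h. The dip of Tdgf1 at 9 h in the cells stands beside the dip in the population of the same hour. The count of 0 of 8 at 216 h allows a share of up to 36.9%.

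Gdf3 was above 0.5 RPKM in 7 or 8 of 8 cells at every time up to 144 h and in 1 at 216 h, with mean log10 values from 1.81 at 60 h to 0.157 at 216 h. Lefty1 was above it in all 8 cells from 0 h to 106 h, an interval of 63.1% to 100%, and in 7 of 8 at 144 h and 216 h. Its mean log10 value was 1.81, 1.89, 2.67, 2.15, 1.87, 1.66, 1.44 and 0.629 over the 8 times. The highest value of any member was Lefty1 in cell 6 at 84 h, at 6739 RPKM. Lefty2 was above 0.5 RPKM in 8, 7, 8, 6, 6, 7, 6 and 1 of 8 cells.

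Smad7 and the receptors were found less evenly. Smad7 was above 0.5 RPKM in 1 to 5 of 8 cells at each time, Acvr2b in 2 to 6 and Smad2 in 2 to 6. Acvr2b reached 776 RPKM in cell 4 at 216 h. Acvr1b was above 0.5 RPKM in 1 cell at 106 h and 2 at 144 h and in 0 of 8 at the other times, although the populations held it at 7.99 to 21.7 FPKM over the same hours. The cells do not show that Acvr1b is absent, since a transcript can be missed in a single cell.

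Nodal was then set beside its co-receptor and its inhibitors cell by cell. Of the 48 cells from 0 h to 106 h, 24 had both Nodal and Tdgf1 above 0.5 RPKM, 2 had Nodal alone and 19 had Tdgf1 alone. Of the 16 cells at 144 h and 216 h, 6 had both and 2 had Nodal alone. All 26 cells with Nodal from 0 h to 106 h also had Lefty1, and 22 had Lefty1 without Nodal. Tdgf1 was in most of these 48 cells and Lefty1 in all of them, so both overlaps follow largely from the counts of Tdgf1 and Lefty1 themselves. The Pearson r of log10 values between Nodal and Tdgf1 was 0.00995 over the 48 cells and 0.507 over the 16 later ones. Between Nodal and Lefty2 it was -0.0793 over the 48 cells, 0.894 over the 16 later ones and 0.154 over all 64. The later value pools 2 times with different means and holds a cell at 144 h that was high in both genes. These correlations are a description over cells that share a culture, a time and a normalization.

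The number of members above 0.5 RPKM in a cell had a median of 5 to 7 at each time through 144 h and 2.5 at 216 h, with a range of 1 to 5. The cells at 216 h were taken after the replating, whose part was not tested. At 216 h cell 16 held Lefty2 at 1.34, Smad7 at 0.934, Gdf3 at 0.814, Nodal at 0.777 and Lefty1 at 0.451 in log10 values and Tdgf1 at 0. It was the cell that held Gdf3 and Lefty2 above 0.5 RPKM at that time. At 144 h cell 11 held Lefty1 at 3.54, Lefty2 at 2.36 and Nodal at 1.85, and cell 16 held Gdf3 at 1.93 and Nodal at 1.48. The 2 cells at 144 h were singled out after their values were seen, and the study's own analysis also sets apart the cell at 216 h.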

How the data were processed

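Expression was measured by RNA-seq in 22 SFEB cell populations, 64 SFEB single cells, 15 adherent samples and 12 E14 samples. For the SFEB populations the authors deposited FPKM corrected with ComBat, in which 1256 values, none of a member, lay below 0 and were raised to 0. For adherent and E14 samples the deposited FPKM carry no stated batch correction. For single cells the authors gave quantile-normalized log10 values. The study's methods name TopHat and Cufflinks on mm9. The submitters' processing notes name TopHat2 2.0.8b and Cufflinks 2.1.1, with mm9 for the R1 samples and mm10 for the 12 E14 samples. Genes of mm9 were used for coordinates.

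The members and lists were chosen with earlier results of these data known. Groups came from the labels. Computations used limma 3.58.1 in R 4.3.3, and Python 3.11.15 (scipy 1.17.1, pandas 2.3.3, numpy 2.4.6, matplotlib 3.10.9). Genes reaching 1 FPKM in 3 or more samples were tested in limma on log2(FPKM + 1), with trended variance and Benjamini-Hochberg adjustment over all genes of a table. A fold on FPKM + 1 understates changes of low genes. All 9 members passed this filter in each table. The named genes were the members, up to 5 called genes of the pathway list with the largest difference, and the 5 genes most like Nodal, Tdgf1, Lefty1 or Lefty2 among those reaching 5 FPKM. In simulated data with known changes of 1, 2 and 3 on the log2 scale, 56.5%, 91% and 98% were recovered in the E14 design, 65%, 96% and 99% in SFEB and 75%, 95.5% and 97.5% in adherent culture. Each run changed 200 genes that were not low and gave 4 to 13 false calls. The noise was independent between samples, with no trend within a window and no library that stood apart. These shares may thus be too high for the members.

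Same-numbered E14 replicates deviated together between WT and Fyn KO at day 4 (r = 0.136, 0.258 and 0.240) and between WT day 0 and day 4 (0.199, 0.220 and 0.224). The other 2 comparisons had an r from -0.115 to 0.339 and from 0.00112 to 0.0899. Samples with different numbers ran from -0.390 to 0.253 between Fyn KO and WT at day 0. No label states a pairing, so none was settled, and the main fits took the samples as unpaired. Alternatives were another pseudocount (0.1), no filter on low values, quantile normalization, other window edges, both SFEB series, a replicate block, only the groups compared, and leaving out each sample. Read counts were not used here. Results for some genes that the rule would name are not reported here.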

Additional observations from a re-analysis of the deposited data

Results flagged for a closer look

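For Lefty2, the samples after 96 h lay on opposite sides of the 24–60 h samples in the SFEB first series and in adherent culture. In the SFEB first series the log2 difference was -2.56, and all 3 late samples (17.1, 4.33 and 4.61 FPKM) lay below the 3 samples of 24–60 h (34.5 to 57.5 FPKM). In adherent culture it was 0.54, and all 5 late samples (3.73 to 7.21 FPKM) lay above the 3 of 24–60 h (2.81 to 3.41 FPKM), though this difference did not pass the test and was 0.03 after quantile normalization. In the parallel SFEB series Lefty2 was at 53.8 and 63.0 FPKM at 24–60 h and at 43.8, 19.2 and 10.3 FPKM after 96 h, so its sample at 106 h lay above the lowest 24–60 h sample of the first series. The difference between the cultures was not tested, since their tables were normalized separately.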

How the results depend on the processing

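The members' late calls in SFEB (7) and adherent culture (4) were kept under every alternative tried. Over 1017 refits of a member, 925 kept direction and call, 17 lost a call, 19 gained one and 56 turned direction, none of the last called in either fit. Beside the losses given with the E14 results, Lefty1 in E14 WT lost the call with no filter (adjusted p = 0.0553). No depth could be read from the files of the populations or the cells.

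The replicate block changed 1 member call, Acvr2b in Fyn KO (adjusted p = 0.0550), and gave 38 genes in place of 21 for Fyn KO against WT at day 0 and 2 in place of 0 for the difference of the change. With no filter those counts were 35 and 1, and 24 in place of 9 at day 4. With only the 2 groups compared they were 2 at day 0 and 5 at day 4, with quantile normalization 17 at day 4, and without both libraries that stood apart 64 at day 0. SFEB 24–60 h against 0–24 h called 3381 genes, and 901 without the 0, 1 and 2 h samples. Leaving out single samples gave 1576 to 4350 genes there, 511 to 1884 in adherent culture (1237), 1831 to 2841 in WT day 4 against day 0 (3166), 1041 to 3063 in Fyn KO (2370), and 4 to 128, 5 to 14 and 0 to 4 for the genotype at day 0, at day 4 and in the change. Quantile normalization moved the share of higher calls from 38.6% to 53.8% (SFEB 24–60 h), from 35.7% to 63.98% (adherent 24–60 h) and from 66.7% to 47.3% (adherent after 96 h). With the log10 of the mean RPKM + 1, 35 in place of 20 levels in the cells were at or above 1.

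Reversed log2 differences were as follows. Without the 0, 1 and 2 h samples of SFEB, Tdgf1 was 0.44 and Smad2 -0.0187. Smad2 in late SFEB was 0.0247 with an edge at 120 h and 0.0279 with both series. Under quantile normalization, Acvr1b was 0.0645 in adherent 24–60 h, Smad2 -0.12 and Smad7 -0.45 in late adherent, and Lefty2 0.0129 for the genotype at day 4. Without both libraries that stood apart, the genotype differences were -0.0714 (Tdgf1), 0.0566 (Gdf3), 0.27 (Smad7) and -0.64 (Lefty1) at day 0, -0.28 (Nodal), -0.00636 (Acvr1b), -0.27 (Smad7) and -0.95 (Lefty1) at day 4, and -0.54 for Smad7 in the change. Leaving out single samples turned Tdgf1 (-0.31 to 0.0537) and Lefty2 (-0.16 to 0.26) in SFEB 24–60 h and Smad2 (-0.15 to 0.0247) in late SFEB. It turned Nodal (-0.37 to 0.11), Acvr1b (-0.16 to 0.00449) and Lefty1 (-0.55 to 0.23) in adherent 24–60 h, Smad2 (-0.0142 to 0.0641) and Smad7 (-0.11 to 0.0939) in late adherent, and Lefty2 (-0.63 to 0.65) in WT day 4. For the genotype at day 0 it turned Tdgf1 (-0.0714 to 0.52), Gdf3 (-0.23 to 0.13), Smad7 (-0.28 to 0.27) and Lefty1 (-0.64 to 1.68). At day 4 it turned Nodal (-0.28 to 0.54), Acvr1b (-0.0342 to 0.24), Acvr2b (-0.31 to 0.17), Smad7 (-0.27 to 0.36), Lefty1 (-0.95 to 0.90) and Lefty2 (-0.63 to 0.65), and in the change Tdgf1 (-0.15 to 1.18), Smad7 (-0.20 to 0.43) and Lefty1 (-1.74 to 0.72). The cause of these moves was not tested, beyond the fewer samples or genes fitted.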
